A study of Homo sapiens with 9 samples.

Results

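The interferon-induced antiviral genes are 45 genes chosen by name as textbook products of interferon signalling, and they were looked up by symbol in the annotation of the array (RIGI was formerly named DDX58). For 44 of them a transcript cluster with a single symbol was found, among 18404 genes in all, and STAT2 was not analysed here. Expression was measured on Affymetrix whole-transcript arrays in MCF10A, an immortal human cell line from breast epithelium that does not form tumours. The series holds 3 groups of 3 arrays. Delta-HER2 cells carry a Delta-HER2 transgene, WT-HER2 cells carry a transgene for the wild-type receptor HER2, and control cells are named parental in one label and carriers of an empty vector in the design. All cells were grown with epidermal growth factor (20 ng/ml) and 5% horse serum and then kept for 16 hours in medium whose only listed additions were antibiotics. The labels do not say whether the transgenic lines were clones or pools, or whether replicates were separate cultures, so the p-values measure only the spread between these samples. With 1 line per transgene, effects of making a line and effects of its transgene cannot be told apart.

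Levels are given as log2 intensity after RMA, the authors' normalization, and a difference of 1 on that scale is a doubling. ERBB2, the gene of the transgenes, averaged 8.95 ± 0.02 in Delta-HER2 cells, 7.98 in WT-HER2 cells (all 3 values identical) and 6.99 ± 0.09 in control cells (SD, n = 3). Of 9 basal epithelial markers listed, 6 were measured and all 6 lay above the background bound in every group. Their levels were not constant: CDH1, or E-cadherin, was at -1.03 in Delta-HER2 (adjusted p = 5.06e-06) and -0.33 in WT-HER2 cells (adjusted p = 0.0498) against control, and the keratin gene KRT14 at -0.68 in WT-HER2 cells (adjusted p = 0.00234). The CDH1 call in WT-HER2 cells was lost on leaving out any single array other than control 1 (adjusted p 0.0818 to 0.203). LAMB3, also on that list, was called higher than control in both lines. With single arrays left out it was at 0.40 to 0.51 in Delta-HER2 cells, and the call was kept each time. In WT-HER2 cells it was then at 0.34 to 0.41, and leaving out any single array ended the call (adjusted p 0.0508 to 0.193). That bound is 3.18, the 0.95 quantile of 340 olfactory receptor genes. In bulk RNA, a change in the number of expressing cells and a change in RNA per cell cannot be told apart. Before the results, differences among arrays of 1 group need stating. WT-HER2 replicate 3 had the lowest value of its group in 36 of the 44 antiviral genes (81.8%, against 39.3% of all genes), as had control replicate 1 in 26 of 44 (59.1%, against 37.1%) and Delta-HER2 replicate 2 in 25 of 44 (56.8%, against 40.3%). Calls that were lost when a single array was left out are therefore marked, with arrays named by group and replicate number (WT-HER2 1 is WT-HER2 replicate 1). Leaving out an array of the group not compared leaves the difference unchanged and can end a call only through the spread or the adjusted cutoff.

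As background, type I interferons bind the receptor IFNAR1 and IFNAR2, whose kinases JAK1 and TYK2 pass the signal on by phosphorylation. The signal activates the factor ISGF3, which contains IRF9 and binds the interferon-stimulated response element (ISRE) in promoters. Interferon gamma has a receptor of its own, and its signal acts at the gamma-activated sequence (GAS). Epithelial cells make and answer interferon when their sensors meet viral RNA or misplaced DNA, and a basal level of the response is found in many cultured lines.

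Promoters were read from RefSeq (build GRCh38.p14), which held entries for 37 of the 45 genes. OAS2, OASL, IFIT2, MX2, USP18, DHX58, TRIM22 and IRF7 had none. The ISRE core was searched as GAAA, any 2 bases and GAAA again, and the GAS as TTC, any 3 bases and GAA, on both strands and over 250 bases before to 50 bases after the start. An ISRE core was found in 25 of 37 antiviral genes (67.6%), against 4.38% of the 27305 genes with an entry. A GAS was found in 13 of 37 (35.1%), against 9.38% of genes. The motifs overlapped each other in 5 genes (IFITM1, EPSTI1, IFI27, BST2 and MX1). A match is a description of letters and not of binding.

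Promoters of genes with differing responses are printed as the 250 bases before the start, 5′ to 3′ on the gene's strand. The first 5 show the ISRE core in capitals. IFIT1, IFIT3 and IFI6 were highest in WT-HER2 cells, DDX60 was raised in both transgenic lines, and SAMD9 was lowered in both.
IFIT1 promoter (chr10:89392373-89392622, plus strand): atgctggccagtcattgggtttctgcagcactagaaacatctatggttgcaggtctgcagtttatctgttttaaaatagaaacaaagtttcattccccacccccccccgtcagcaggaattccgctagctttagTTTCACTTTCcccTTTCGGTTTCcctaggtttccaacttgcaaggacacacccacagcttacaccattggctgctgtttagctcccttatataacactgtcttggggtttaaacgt
IFIT3 promoter (chr10:89327747-89327996, plus strand): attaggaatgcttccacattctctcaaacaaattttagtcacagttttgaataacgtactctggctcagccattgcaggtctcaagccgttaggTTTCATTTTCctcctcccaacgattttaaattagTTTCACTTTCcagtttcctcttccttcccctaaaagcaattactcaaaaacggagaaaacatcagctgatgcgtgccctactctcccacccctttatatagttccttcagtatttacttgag
IFI6 promoter (chr1:27672193-27672442, minus strand): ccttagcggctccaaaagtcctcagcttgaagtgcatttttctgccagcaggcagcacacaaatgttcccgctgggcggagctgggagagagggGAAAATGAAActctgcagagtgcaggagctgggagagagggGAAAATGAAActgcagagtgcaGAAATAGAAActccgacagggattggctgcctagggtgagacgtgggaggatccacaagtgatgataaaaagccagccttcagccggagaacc
DDX60 promoter (chr4:168318753-168319002, minus strand): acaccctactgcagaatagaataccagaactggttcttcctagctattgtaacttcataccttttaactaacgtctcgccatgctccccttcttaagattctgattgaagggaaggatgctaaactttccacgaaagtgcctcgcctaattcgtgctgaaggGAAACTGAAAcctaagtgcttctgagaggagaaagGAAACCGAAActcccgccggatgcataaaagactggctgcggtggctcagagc
SAMD9 promoter (chr7:93117980-93118229, minus strand): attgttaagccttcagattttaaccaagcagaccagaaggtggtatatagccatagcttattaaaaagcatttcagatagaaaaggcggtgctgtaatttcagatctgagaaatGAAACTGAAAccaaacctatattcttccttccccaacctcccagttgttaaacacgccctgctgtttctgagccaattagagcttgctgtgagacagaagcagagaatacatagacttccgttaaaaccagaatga
The promoters of the transcription factor genes IRF9 and IRF1, which were lower in Delta-HER2 cells than in either other group, held no ISRE core by these letters and are shown with the GAS in capitals.
IRF9 promoter (chr14:24161015-24161264, plus strand): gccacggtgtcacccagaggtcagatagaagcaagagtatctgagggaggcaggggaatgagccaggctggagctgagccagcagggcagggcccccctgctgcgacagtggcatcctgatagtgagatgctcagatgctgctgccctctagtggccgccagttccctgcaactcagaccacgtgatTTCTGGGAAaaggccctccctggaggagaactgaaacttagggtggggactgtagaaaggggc
IRF1 promoter (chr5:132490774-132491023, minus strand): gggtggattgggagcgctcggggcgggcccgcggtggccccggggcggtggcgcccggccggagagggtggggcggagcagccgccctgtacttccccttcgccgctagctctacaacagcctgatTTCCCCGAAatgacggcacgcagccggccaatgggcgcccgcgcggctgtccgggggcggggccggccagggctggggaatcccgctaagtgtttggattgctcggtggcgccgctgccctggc
IFIT1, IFIT3 and DDX60 each held 2 ISRE cores in this stretch, IFI6 held 3 and SAMD9 held 1. The motif was thus present in genes that moved in opposite directions. Of the antiviral genes with an entry, 7 of 11 that rose in WT-HER2 cells held an ISRE core, as did 17 of 24 that did not pass the test in that comparison.

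Both transgenic lines were compared with control cells and with each other. Receptor form, ERBB2 level and effects of making a line cannot be told apart in these comparisons. The comparisons against control share the same 3 control arrays, and the 3 arrays of each transgenic line also enter the comparison between the lines. In WT-HER2 cells 13 of 44 antiviral genes rose and 1 fell (31.8% in either direction, against 1.68% of all genes), against 0.777% of all genes called higher and 0.902% called lower at adjusted p below 0.05. The genes that rose were OASL, OAS1, OAS2, IFI44L, RSAD2, IFIT1, IFIT3, IFI6, IFI35, RIGI, DDX60, IRF9 and IFITM1, and SAMD9 fell. Of all 44, 39 had a positive difference, as had 9721 of all 18404 genes. The median difference of the 44 was 0.29, against 0.01 over all genes. In 20 of 44 every WT-HER2 array lay above every control array and in 1 every array lay below, where the shares of all genes were 6.40% and 7.63% (14.0% in either direction).

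In Delta-HER2 cells 7 antiviral genes rose and 6 fell against control. OASL, OAS2, OAS3, RIGI, DDX60, HERC5 and IFITM1 rose, and IRF9, IRF1, TRIM22, SAMD9, SP110 and PARP14 fell. The shares of all genes were 13.6% called higher and 11.7% called lower. The 29.5% of antiviral genes called in either direction thus lay near the 25.4% of all genes. The adjusted cutoff was also looser here, since 4669 of all genes were called, against 309 in WT-HER2 cells. An unadjusted limma p of 0.0118 (SP110) passed here, and 0.000956 (IFIT2) did not pass in WT-HER2 cells. A gene called in 1 line alone is therefore not shown to differ between the lines. All Delta-HER2 arrays lay above all control arrays in 12 antiviral genes and below them in 9, against 19.2% and 17.8% of all genes (37.0% in either direction). The antiviral genes' median difference was 0.02, against -0.01 over all genes. Normalization changed the split: 6 rose and 8 fell after quantile normalization of the table, and 7 rose and 4 fell after centring arrays on their medians. The shares of all genes called higher and lower were 13% and 14% after quantile normalization, and 14.2% and 9.17% after centring.

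Between the transgenic lines, 15 of 44 antiviral genes were lower in Delta-HER2 than in WT-HER2 cells and 0 were higher, where 9.35% of all genes were called lower and 13.4% higher by limma. At an unadjusted p below 0.05, 1 (DDX60) was higher. The median difference was -0.32, against -0.04 over all genes. All Delta-HER2 arrays lay below all WT-HER2 arrays in 19 of 44, against 16.3% of all genes, and above them in 0, against 18.3% (34.7% of all genes in either direction). The highest of the group means was in WT-HER2 cells for 31 antiviral genes, in Delta-HER2 cells for 8 and in control cells for 5. The matching shares of all genes were not counted, so these counts cannot be called unusual.

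**Figure D1:**
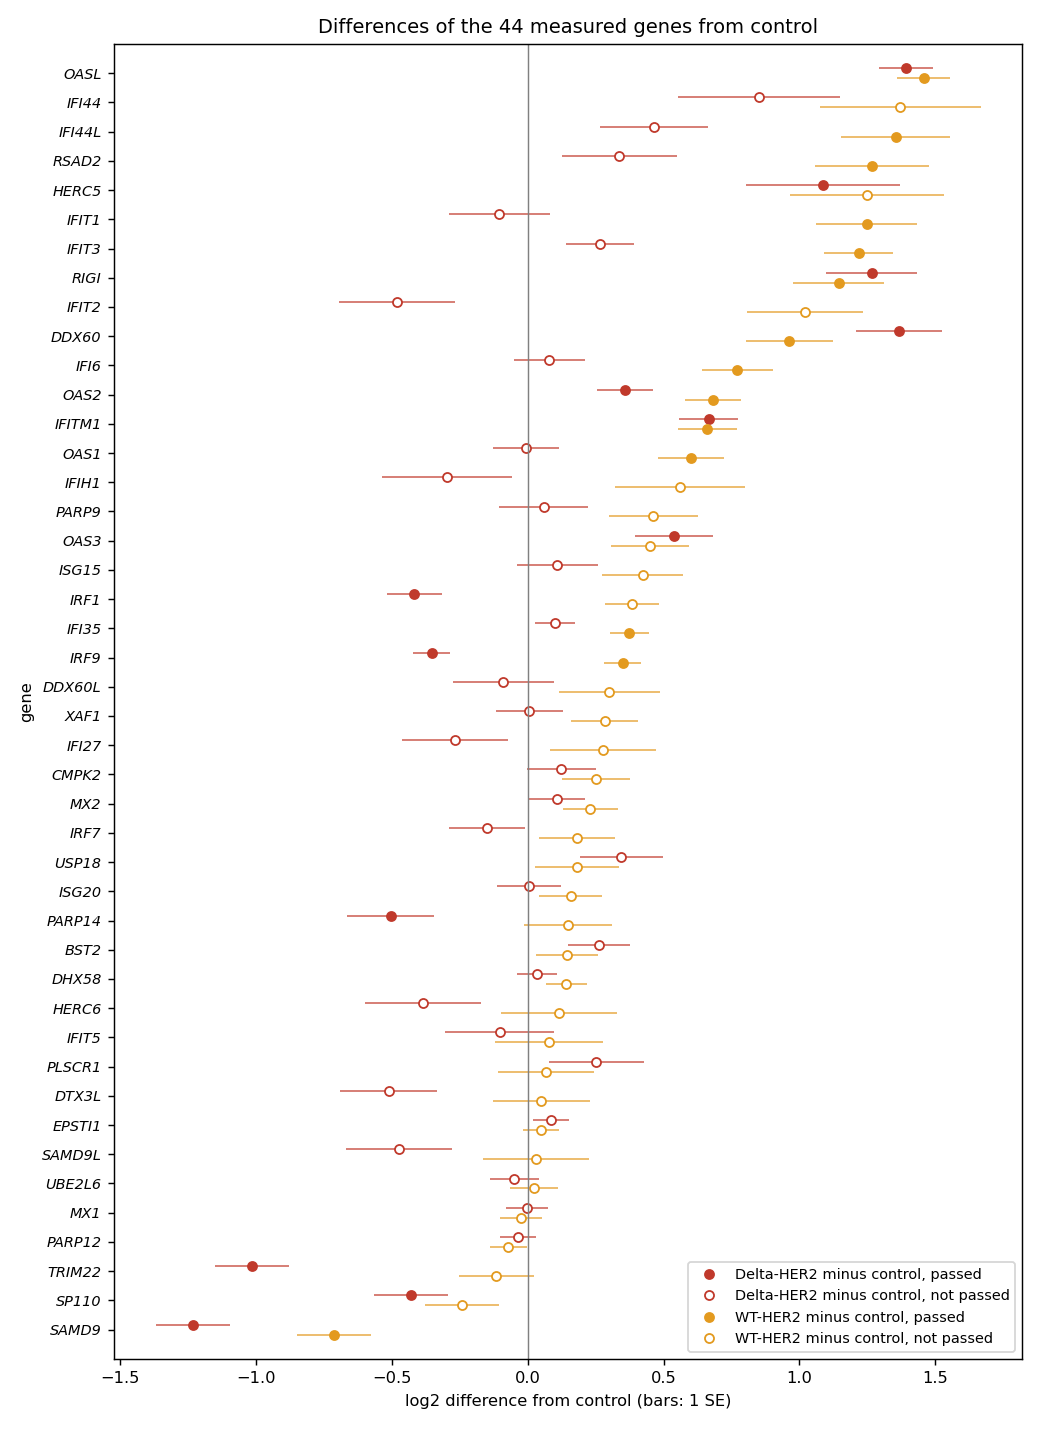
Difference in log2 level from control cells for the 44 antiviral genes, with Delta-HER2 and WT-HER2 cells each shown as a point with a bar of 1 SE, and filled points for genes with adjusted p below 0.05. OASL, RIGI, DDX60 and IFITM1 lie right of 0 for both lines, SAMD9 lies left of 0 for both, and IRF9 lies left for Delta-HER2 and right for WT-HER2.

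Among the oligoadenylate synthetase family, OASL and OAS2 rose in both lines, OAS1 passed in WT-HER2 cells and OAS3 in Delta-HER2 cells. OAS1, OAS2 and OAS3 make oligoadenylates on double-stranded RNA, which activate RNase L, whereas OASL lacks that activity and enhances RNA sensing by RIG-I in human cells. OASL had 6.00, 6.20 and 6.04 in Delta-HER2 cells, 6.13, 6.32 and 5.98 in WT-HER2 cells, and 4.76, 4.67 and 4.63 in control cells. All 6 transgenic arrays lay above the controls, and the transgenic groups overlapped each other. The difference from control was 1.39 (SE 0.10, limma adjusted p = 7.07e-06) in Delta-HER2 cells and 1.46 (SE 0.10, adjusted p = 0.000199) in WT-HER2 cells. Delta-HER2 minus WT-HER2 was -0.07, with a 95% interval of -0.29 to 0.15.

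OAS1 had 7.36, 7.35 and 7.35 in Delta-HER2 cells, 8.05, 8.15 and 7.68 in WT-HER2 cells, and 7.33, 7.25 and 7.50 in control cells. The Delta-HER2 arrays fell within the control range and the WT-HER2 arrays above both. OAS1 was 0.60 higher in WT-HER2 than in control cells (adjusted p = 0.0444) and 0.61 lower in Delta-HER2 than in WT-HER2 cells (-0.61, adjusted p = 0.00515), while Delta-HER2 minus control was -0.01 with an interval of -0.28 to 0.27. The call against control was lost on leaving out any single array other than WT-HER2 replicate 3 (adjusted p 0.0786 to 0.199), whereas the call between the lines held under all 21 alternatives. OAS2 had 4.33, 4.16 and 4.14 in Delta-HER2 cells, 4.58, 4.69 and 4.34 in WT-HER2 cells, and 3.83, 3.78 and 3.95 in control cells. Its groups did not overlap, with WT-HER2 highest and control lowest, and the differences from control were 0.36 (adjusted p = 0.0287) for Delta-HER2 and 0.68 (adjusted p = 0.0111) for WT-HER2 cells. The OAS2 call was lost without array control 1, control 2, Delta-HER2 1 or Delta-HER2 2 in Delta-HER2 cells (adjusted p 0.0551 to 0.110), and without array control 2 or WT-HER2 1 in WT-HER2 cells (adjusted p 0.0554 to 0.0651). Between the lines OAS2 was at -0.32 (adjusted p = 0.0484), and removing any array other than WT-HER2 3 or Delta-HER2 1 ended that call (adjusted p 0.0604 to 0.155). OAS3 was 0.54 higher in Delta-HER2 cells (adjusted p = 0.0212) and 0.45 higher in WT-HER2 cells, where it did not pass (adjusted p = 0.24), and its call was lost without array control 1, Delta-HER2 1 or Delta-HER2 3 (adjusted p 0.0511 to 0.072).

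The IFIT family had the lowest median difference between the lines of the gene groups by role, at -1.15 for Delta-HER2 minus WT-HER2. IFIT proteins bind RNA ends that lack the cap methylation of host messages, with IFIT2 and IFIT3 joining IFIT1 in a complex. IFIT1 had 6.60, 6.18 and 6.34 in Delta-HER2 cells, 8.04, 7.86 and 7.27 in WT-HER2 cells, and 6.36, 6.49 and 6.58 in control cells. IFIT3 had 5.62, 5.32 and 5.58 in Delta-HER2 cells, 6.54, 6.56 and 6.28 in WT-HER2 cells, and 5.06, 5.44 and 5.22 in control cells. In both genes each WT-HER2 array lay above all others, and the Delta-HER2 and control arrays overlapped.

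Against control cells, IFIT1 rose by 1.25 (SE 0.19, adjusted p = 0.0109) and IFIT3 by 1.22 (SE 0.13, adjusted p = 0.00155) in WT-HER2 cells. The IFIT3 call held under all 21 alternatives, and that of IFIT1 was lost without control replicate 2 (adjusted p = 0.0582) or WT-HER2 replicate 2 (adjusted p = 0.0587). IFIT2 had 6.27, 5.81 and 6.30 in Delta-HER2 cells, 7.80, 7.94 and 7.14 in WT-HER2 cells, and 6.39, 6.72 and 6.71 in control cells. Its WT-HER2 arrays were highest and its Delta-HER2 arrays lowest, yet neither difference from control passed (-0.48, adjusted p = 0.152 for Delta-HER2, and 1.02, adjusted p = 0.0548 for WT-HER2).

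Between the lines, IFIT2 fell by 1.50 in Delta-HER2 relative to WT-HER2 cells (SE 0.21, adjusted p = 0.000723), the widest difference of the 44 genes. IFIT1 differed by -1.35 (SE 0.19, adjusted p = 0.000565) and IFIT3 by -0.95 (SE 0.13, adjusted p = 0.000458), and all 3 calls held under the 21 alternatives. Against control in Delta-HER2 cells, IFIT1 was at -0.10 (interval -0.52 to 0.31) and IFIT3 at 0.27 (interval -0.02 to 0.55), and neither passed. IFIT5, the neighbour of IFIT1 among protein-coding genes, was at -0.10 in Delta-HER2 and 0.08 in WT-HER2 cells against control, and did not pass in any comparison.

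**Figure D2:**
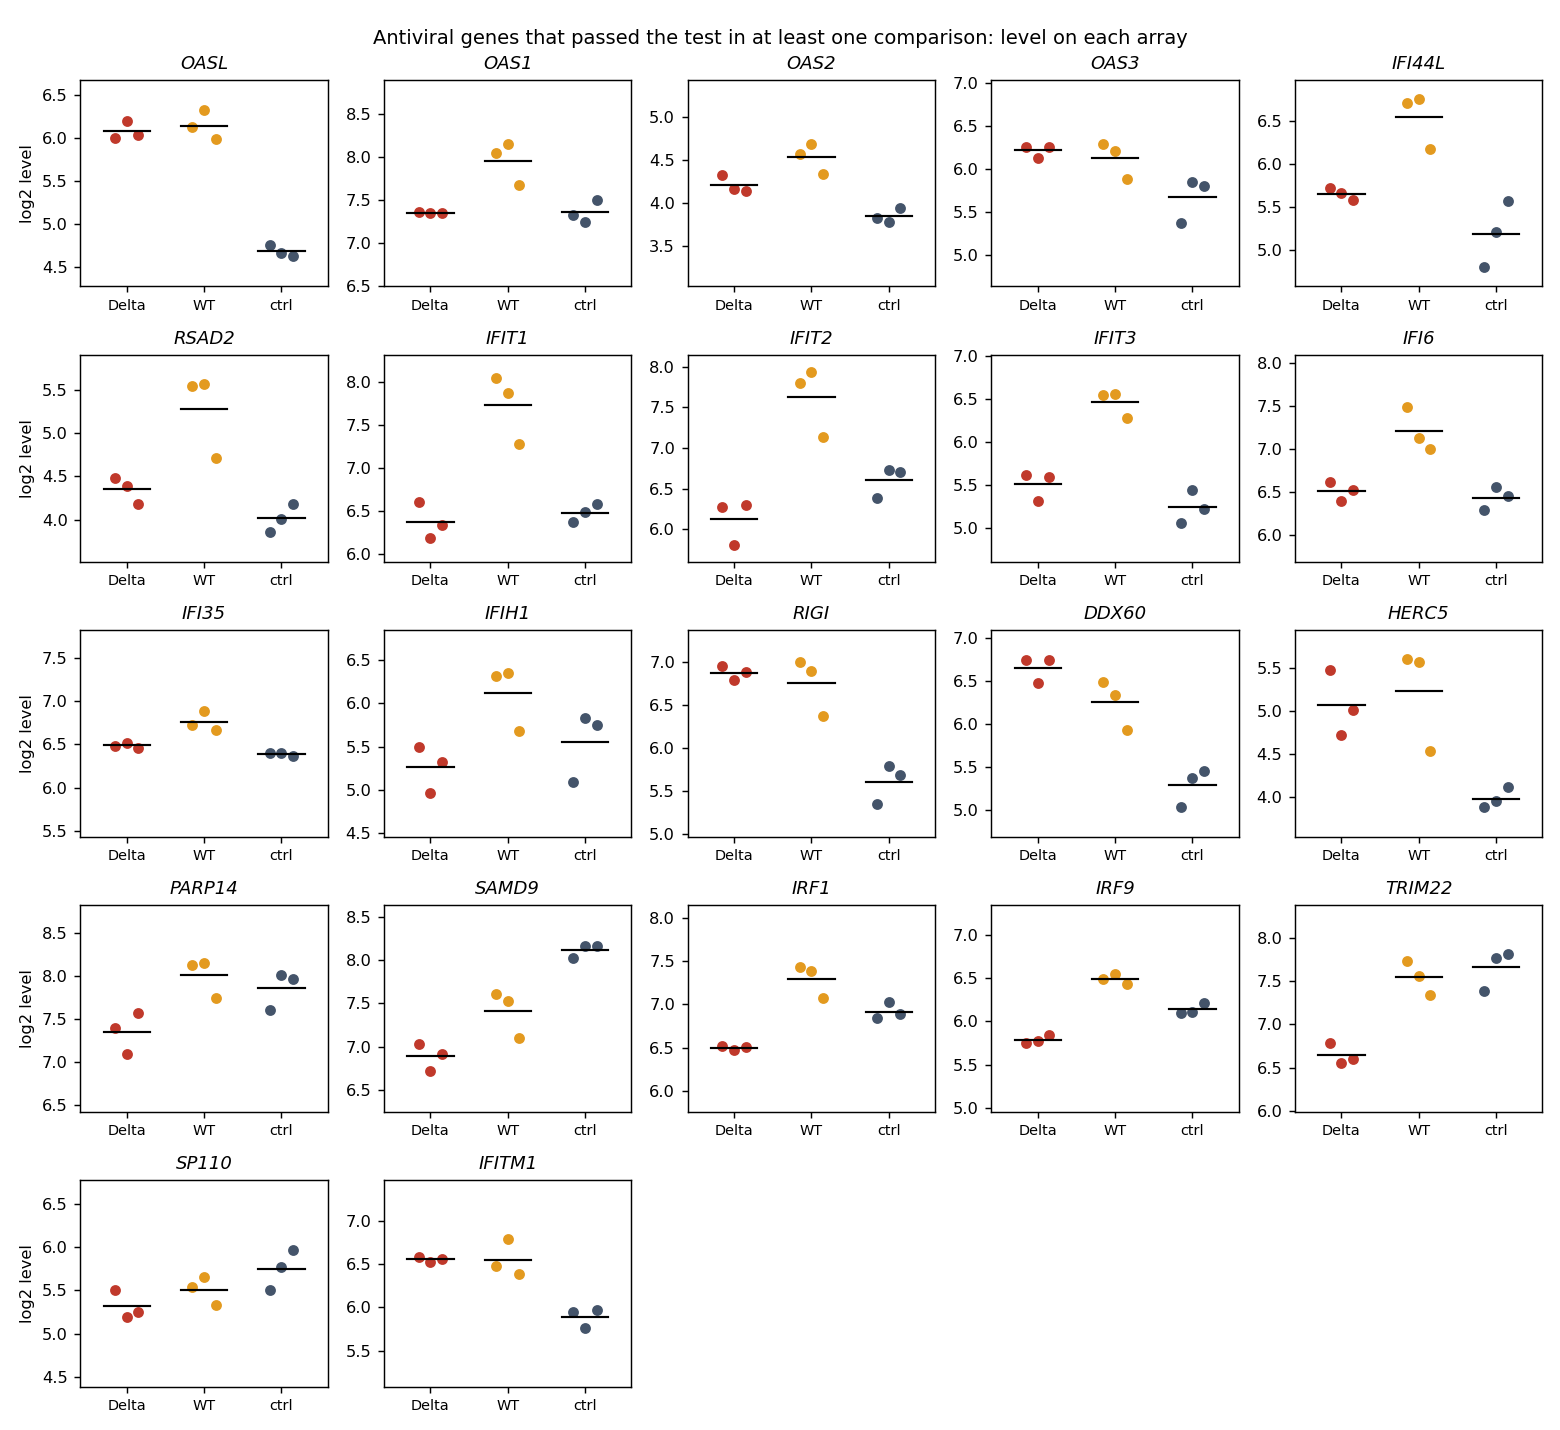
Log2 level on each array for the 22 antiviral genes that passed in at least 1 comparison, in panels by gene with Delta-HER2, WT-HER2 and control side by side, 1 point per array and a line at the group mean. IFIT1, IFIT2 and IFIT3 are highest on every WT-HER2 array, with WT-HER2 replicate 3 the lowest of that group, and TRIM22 is lowest on every Delta-HER2 array.

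Of the 21 other effectors, 6 rose in WT-HER2 cells with 1 lower there, and 2 rose and 3 fell in Delta-HER2 cells, against control. The 23.8% called in Delta-HER2 cells lay near the 25.4% of all genes, and 33.3% were called in WT-HER2 cells, against 1.68% of all genes. RSAD2, or viperin, makes a nucleotide that stops viral RNA synthesis, and it had 4.48, 4.38 and 4.18 in Delta-HER2 cells, 5.55, 5.57 and 4.72 in WT-HER2 cells, and 3.85, 4.01 and 4.17 in control cells. It rose by 1.27 in WT-HER2 cells (SE 0.21, adjusted p = 0.019), a call that was lost on leaving out any 1 of the 3 control arrays, array WT-HER2 1 or WT-HER2 2 (adjusted p 0.0601 to 0.0873). Its neighbour CMPK2, a nucleotide kinase, was at 0.12 in Delta-HER2 and 0.25 in WT-HER2 cells and did not pass. IFI44L, an interferon-induced gene next to IFI44, had 5.72, 5.66 and 5.58 in Delta-HER2 cells, 6.70, 6.76 and 6.17 in WT-HER2 cells, and 4.80, 5.21 and 5.57 in control cells. The groups did not overlap, although control replicate 3 came close to the lowest Delta-HER2 array.

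IFI44L was 1.35 higher in WT-HER2 cells (SE 0.20, adjusted p = 0.0107), and in Delta-HER2 cells it was at 0.46 and did not pass (adjusted p = 0.138). The WT-HER2 call was lost without array control 2, WT-HER2 1 or WT-HER2 2 (adjusted p 0.0543 to 0.057). Delta-HER2 minus WT-HER2 was -0.89 (adjusted p = 0.01) for IFI44L and -0.93 (adjusted p = 0.0105) for RSAD2. IFI44 had a difference as large, 1.37 in WT-HER2 cells, with a wider SE of 0.30, and did not pass (adjusted p = 0.0631). IFI6, a protein of the endoplasmic reticulum that limits flavivirus replication, had 6.62, 6.40 and 6.53 in Delta-HER2 cells, 7.49, 7.13 and 7.00 in WT-HER2 cells, and 6.30, 6.56 and 6.45 in control cells. The WT-HER2 arrays stood above the rest (0.77 against control, adjusted p = 0.0195), and Delta-HER2 minus WT-HER2 was -0.69 (adjusted p = 0.00362). Leaving out any 1 control array or WT-HER2 replicate 2 ended the call of IFI6 against control (adjusted p 0.057 to 0.0809). IFI35 was at 0.37 in WT-HER2 against control cells (adjusted p = 0.0376) and at -0.27 in Delta-HER2 against WT-HER2 cells (adjusted p = 0.0228). Its first call was lost without any single array other than WT-HER2 replicate 3 (adjusted p 0.0633 to 0.146), and its second without array WT-HER2 2, Delta-HER2 1 or Delta-HER2 3 (adjusted p 0.0651 to 0.0765).

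Other effectors rose in both lines. DDX60, a helicase linked to antiviral RNA sensing, had 6.74, 6.48 and 6.75 in Delta-HER2 cells, 6.49, 6.33 and 5.93 in WT-HER2 cells, and 5.04, 5.37 and 5.45 in control cells. It rose by 1.37 in Delta-HER2 (SE 0.16, adjusted p = 0.000172) and by 0.96 in WT-HER2 cells (SE 0.16, adjusted p = 0.019), and the lines differed by 0.40 (interval 0.04 to 0.76, adjusted p = 0.11). Its WT-HER2 call was lost without array control 2, control 3, WT-HER2 1 or WT-HER2 2 (adjusted p 0.0513 to 0.0847). The neighbouring paralog DDX60L was at -0.09 in Delta-HER2 and 0.30 in WT-HER2 cells and did not pass. IFITM1, a membrane protein that blocks virus entry, had 6.58, 6.53 and 6.57 in Delta-HER2 cells, 6.48, 6.79 and 6.39 in WT-HER2 cells, and 5.95, 5.76 and 5.97 in control cells. Both lines lay above control by nearly the same amount, 0.67 in Delta-HER2 (adjusted p = 0.00131) and 0.66 in WT-HER2 cells (adjusted p = 0.0174), and their own difference was 0.01 (interval -0.24 to 0.25). The WT-HER2 call of IFITM1 was lost without array control 2, control 3 or WT-HER2 1 (adjusted p 0.0531 to 0.087). IFITM genes are close paralogs, and whether probes of IFITM1 also read related transcripts was not tested.

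Some effectors fell in Delta-HER2 cells. TRIM22, a ubiquitin ligase that restricts viruses, had 6.79, 6.55 and 6.60 in Delta-HER2 cells, 7.73, 7.57 and 7.34 in WT-HER2 cells, and 7.39, 7.78 and 7.82 in control cells. The Delta-HER2 arrays lay below all others, while WT-HER2 and control arrays overlapped. Delta-HER2 cells differed from control by -1.01 (SE 0.14, adjusted p = 0.000441) and from WT-HER2 cells by -0.90 (adjusted p = 0.0011), and both calls held under all 21 alternatives. SAMD9, a protein that restricts poxviruses in human cells, had 7.03, 6.72 and 6.92 in Delta-HER2 cells, 7.61, 7.53 and 7.09 in WT-HER2 cells, and 8.03, 8.17 and 8.17 in control cells. It was the 1 antiviral gene lower in both lines, at -1.23 in Delta-HER2 (adjusted p = 0.000121) and -0.71 in WT-HER2 cells (adjusted p = 0.0355), with -0.52 between the lines (adjusted p = 0.0214). The WT-HER2 call of SAMD9 was lost on leaving out any 1 control array, array WT-HER2 2, Delta-HER2 1 or Delta-HER2 3 (adjusted p 0.0576 to 0.153), and that between the lines without array WT-HER2 1, WT-HER2 2, Delta-HER2 2 or Delta-HER2 3 (adjusted p 0.0577 to 0.0803). Its neighbour SAMD9L was at -0.47 in Delta-HER2 and 0.03 in WT-HER2 cells and did not pass, with a Delta-HER2 mean of 3.17, just under the bound. SP110, a nuclear body protein, was at -0.43 in Delta-HER2 cells (adjusted p = 0.047), though Delta-HER2 1 and control 1 were both at 5.51, and the call was lost without any 1 of 6 arrays (control 2 or 3, WT-HER2 1 or 2, Delta-HER2 2 or 3, adjusted p 0.0548 to 0.167).

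The remaining 12 effectors passed in no comparison. MX1 and MX2, GTPases that trap viral nucleocapsids, and EPSTI1 lay under the background bound in every group mean, so a change in them could not be measured here. MX1 had 3.07, 2.96 and 2.92 in Delta-HER2 cells, 2.96 on all 3 WT-HER2 arrays, and 3.11, 2.89 and 2.96 in control cells. BST2, or tetherin, which holds budding virions at the cell surface, was at 0.26 in Delta-HER2 and 0.14 in WT-HER2 cells. ISG20, IFI27, XAF1 and PLSCR1 ranged over the 2 control comparisons from -0.27 to 0.28. XAF1 averaged 2.91 in Delta-HER2, 3.19 in WT-HER2 and 2.90 in control cells, at or under the bound, so that its lack of a call says little.

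In the ISG15 system, 1 of 5 genes passed, in Delta-HER2 cells against control (20%, against 25.4% of all genes), and 0 passed in WT-HER2 cells. ISG15 is a ubiquitin-like protein, which UBE2L6 and the ligase HERC5 attach to proteins and USP18 removes. HERC5 had 5.48, 4.72 and 5.02 in Delta-HER2 cells, 5.60, 5.57 and 4.53 in WT-HER2 cells, and 3.88, 3.96 and 4.11 in control cells. Both lines lay above control on every array. The difference was 1.09 in Delta-HER2 (SE 0.28, adjusted p = 0.0185) and 1.25 in WT-HER2 cells (SE 0.28, adjusted p = 0.0751). Only the smaller one passed, although its unadjusted limma p was the larger (0.00372 against 0.00155), because the adjusted cutoff was stricter in WT-HER2 cells. The Delta-HER2 call was lost without array control 1, control 2, Delta-HER2 1 or Delta-HER2 3 (adjusted p 0.0517 to 0.077). HERC6, next to HERC5, was at -0.38 in Delta-HER2 and 0.11 in WT-HER2 cells. ISG15 itself was at 0.11 in Delta-HER2 and 0.42 in WT-HER2 cells, USP18 at 0.34 and 0.18, and UBE2L6 at -0.05 and 0.02, and these did not pass.

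Among the cytoplasmic RNA sensors, RIGI rose in both lines and IFIH1 differed between them. RIGI encodes RIG-I, which senses uncapped viral RNA, and IFIH1 encodes MDA5, which senses long double-stranded RNA. RIGI had 6.95, 6.79 and 6.88 in Delta-HER2 cells, 6.99, 6.89 and 6.36 in WT-HER2 cells, and 5.34, 5.79 and 5.68 in control cells. Every transgenic array lay above every control array, by 1.27 on average in Delta-HER2 (SE 0.17, adjusted p = 0.000378) and 1.14 in WT-HER2 cells (SE 0.17, adjusted p = 0.0105), where the call was lost without WT-HER2 replicate 2 (adjusted p = 0.0543). IFIH1 had 5.50, 4.96 and 5.32 in Delta-HER2 cells, 6.32, 6.35 and 5.68 in WT-HER2 cells, and 5.09, 5.83 and 5.75 in control cells. It was lower in Delta-HER2 than in WT-HER2 cells (-0.86, SE 0.24, adjusted p = 0.0294), while neither line passed against control (-0.30 in Delta-HER2 and 0.56 in WT-HER2), and the call was lost without array WT-HER2 1, WT-HER2 2, Delta-HER2 2 or Delta-HER2 3 (adjusted p 0.0728 to 0.109). DHX58, or LGP2, a regulator of both sensors, stayed between 3.71 and 4.03 on all 9 arrays.

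The 3 measured transcription factor genes were IRF9, IRF1 and IRF7. IRF9 had 5.75, 5.78 and 5.84 in Delta-HER2 cells, 6.50, 6.55 and 6.43 in WT-HER2 cells, and 6.10, 6.12 and 6.22 in control cells. The groups stood apart, with Delta-HER2 lowest and WT-HER2 highest, and IRF9 was the 1 antiviral gene called in opposite directions. It was at -0.35 in Delta-HER2 (SE 0.07, adjusted p = 0.00381) and 0.35 in WT-HER2 cells (SE 0.07, adjusted p = 0.0383) against control, and the lines differed by -0.70 (adjusted p = 6.8e-05). The calls in Delta-HER2 cells and between the lines held under all 21 alternatives, whereas that in WT-HER2 cells was lost on leaving out any single array other than WT-HER2 replicate 3 (adjusted p 0.065 to 0.159). IRF1, a factor that binds ISRE-like sites and is itself induced by interferon gamma, had 6.51, 6.47 and 6.51 in Delta-HER2 cells, 7.44, 7.39 and 7.08 in WT-HER2 cells, and 6.84, 7.03 and 6.88 in control cells.

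IRF1 likewise had 3 groups that did not overlap, in the same order as IRF9. It fell by 0.42 in Delta-HER2 cells against control (SE 0.10, adjusted p = 0.0126), a call lost without control replicate 2 (adjusted p = 0.0548), and differed by -0.80 from WT-HER2 cells (adjusted p = 0.000318). In WT-HER2 cells it was at 0.38 and did not pass (adjusted p = 0.122). IRF7, which amplifies interferon production, was at -0.15 in Delta-HER2 and 0.18 in WT-HER2 cells and did not pass. Among the PARP genes, PARP14, a mono-ADP-ribosyltransferase, was at -0.50 in Delta-HER2 cells against control (adjusted p = 0.0465) and at -0.65 against WT-HER2 cells (adjusted p = 0.016). Neither call held throughout when arrays were left out in turn. The call against control was lost without array control 2, control 3, WT-HER2 1, WT-HER2 2, Delta-HER2 1 or Delta-HER2 2 (adjusted p 0.0593 to 0.165). Without WT-HER2 1 or WT-HER2 2, which do not enter that difference, it stayed at -0.50. The call between the lines was lost without array WT-HER2 1, WT-HER2 2 or Delta-HER2 2 (adjusted p 0.0591 to 0.0617). PARP9 and DTX3L, which form a complex and lie side by side in the genome, gave differences from control of 0.06 and -0.51 in Delta-HER2 and of 0.46 and 0.05 in WT-HER2 cells, and with PARP12 passed in no comparison.

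Across the list, 5 genes were called higher in both lines (OASL, OAS2, RIGI, DDX60 and IFITM1), and 9 were higher in WT-HER2 cells and lower in Delta-HER2 than in WT-HER2 cells (OAS1, OAS2, IFI44L, RSAD2, IFIT1, IFIT3, IFI6, IFI35 and IRF9). No antiviral gene passed as higher in Delta-HER2 than in WT-HER2 cells. In all, 22 of 44 genes passed in no comparison. The comparisons joined here share arrays, so that their calls are not independent of each other. The shares of all genes with these joint patterns were not counted, so these counts cannot be called unusual.

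**Figure D3:**
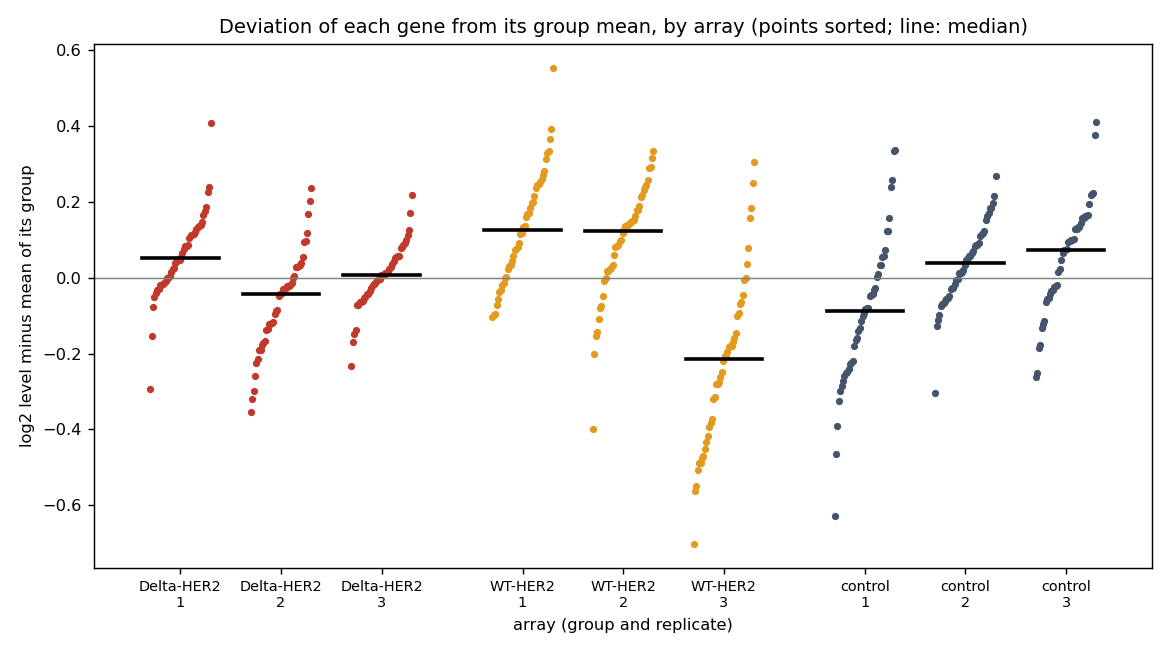
Deviation of each of the 44 antiviral genes from its group mean on every array, in log2, with a line at the median. The median is at -0.21 on WT-HER2 replicate 3 and at -0.09 on control replicate 1, and those on the other 2 WT-HER2 arrays are at 0.13 and 0.12.

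Single arrays stood apart over these genes. The median deviation from the group mean was 0.05, -0.04 and 0.01 on Delta-HER2 arrays 1, 2 and 3, 0.13, 0.12 and -0.21 on WT-HER2 arrays, and -0.09, 0.04 and 0.07 on control arrays. Without both WT-HER2 replicate 3 and control replicate 1, 17 genes were higher and 1 lower in WT-HER2 than in control cells (0.75% and 0.848% of all genes). In Delta-HER2 cells 8 then rose and 11 fell against control (14.8% and 14.5% of all genes). Between the lines, 23 were then lower in Delta-HER2 than in WT-HER2 cells (11.5% of all genes). Without Delta-HER2 replicate 2 alone, 6 rose and 4 fell in Delta-HER2 cells against control (12.8% and 9.32% of all genes). Then 11 were lower in Delta-HER2 than in WT-HER2 cells (7.28% of all genes). Leaving out 1 array in turn gave 3 to 17 genes higher in WT-HER2 than in control cells (0.348% to 0.734% of all genes). The lowest count was without control replicate 2 and the highest without WT-HER2 replicate 3. It gave 11 to 22 genes lower in Delta-HER2 than in WT-HER2 cells (7.2% to 9.98% of all genes). OASL and IFIT3 were the 2 genes whose rise in WT-HER2 cells passed under each of the 21 alternatives.

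The genes that make and sense interferon were set beside the responders. Of 21 interferon ligand genes listed, 16 were measured. Of these 16, 0 passed limma's test in any comparison, also 0 at an unadjusted p below 0.05. In every group 12 lay under the background bound, and 4 lay above it in at least 1 group. Among those 4, IFNL3 averaged 6.21 in Delta-HER2 (all values identical), 6.09 in WT-HER2 and 6.19 in control cells. IFNB1 averaged 2.12 in Delta-HER2, 2.13 in WT-HER2 and 2.11 in control cells. Of 16 receptor and JAK-STAT genes, 0 passed in WT-HER2 cells by limma (1 was higher and 1 lower at an unadjusted p below 0.05), and 1.68% of all genes were called there. In Delta-HER2 cells 2 rose and 3 fell (31.2% called, against 25.4% of all genes). IFNGR2, a chain of the interferon gamma receptor, was at 0.97 (adjusted p = 1.04e-05) and PTPN11, a tyrosine phosphatase, at 0.55 (adjusted p = 0.000574) in Delta-HER2 cells. JAK1 had 8.63, 8.51 and 8.52 in Delta-HER2 cells, 9.14, 9.21 and 9.25 in WT-HER2 cells, and 9.22, 9.27 and 9.40 in control cells, and it fell in Delta-HER2 cells against control (-0.75, adjusted p = 6.13e-05), with -0.65 against WT-HER2 cells (adjusted p = 0.000181). PTPN6, a phosphatase that restrains JAK signalling, also fell in Delta-HER2 cells, as did IL10RB, a receptor chain shared by interferon lambda, whose call was lost without array control 2, control 3, Delta-HER2 1 or Delta-HER2 2 (adjusted p 0.0703 to 0.0813). IFNAR1 was at -0.26 in Delta-HER2 and -0.02 in WT-HER2 cells, and IFNAR2 at 0.47 and -0.08, and these did not pass.

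Of 22 nucleic acid sensing genes, 3 rose and 4 fell in Delta-HER2 cells and 1 rose in WT-HER2 cells. These are 31.8% called in Delta-HER2 cells, against 25.4% of all genes, and 4.55% in WT-HER2 cells, against 1.68%. STING1, the adaptor for cytoplasmic DNA, had 7.66, 7.72 and 7.64 in Delta-HER2 cells, 7.26, 7.34 and 7.09 in WT-HER2 cells, and 6.56, 6.81 and 6.70 in control cells. It rose in both lines, by 0.98 in Delta-HER2 (adjusted p = 3.31e-05) and 0.54 in WT-HER2 cells (adjusted p = 0.0187), where the call was lost without array control 3, WT-HER2 1 or WT-HER2 2 (adjusted p 0.0759 to 0.0817). CGAS, the sensor upstream of STING1, was at 1.11 in Delta-HER2 (adjusted p = 0.00234) and 0.13 in WT-HER2 cells. TLR3, which senses double-stranded RNA in endosomes, was at -1.06 in Delta-HER2 (adjusted p = 4.75e-05) and -0.29 in WT-HER2 cells. IRF5, a transcription factor of Toll-like receptor signalling, was at -0.86 in Delta-HER2 (adjusted p = 0.000795) and -0.40 in WT-HER2 cells (adjusted p = 0.243). TRIM25, a ubiquitin ligase linked to RIG-I signalling, and MAVS, the adaptor of RIG-I and MDA5, were lower in Delta-HER2 cells than in control (-0.46 and -0.22) and than in WT-HER2 cells (-0.82 and -0.32). The MAVS call against control was lost without array control 2, control 3 or any 1 of the 3 Delta-HER2 arrays (adjusted p 0.0655 to 0.117).

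Of 17 genes associated with interferon gamma, 4 rose and 2 fell in Delta-HER2 cells and 2 rose in WT-HER2 cells. These are 35.3% called in Delta-HER2 cells, against 25.4% of all genes, and 11.8% in WT-HER2 cells, against 1.68%. The chemokine CXCL10 had 4.95, 4.84 and 4.96 in Delta-HER2 cells, 4.93, 5.19 and 4.41 in WT-HER2 cells, and 3.01, 3.22 and 2.93 in control cells. It rose by 1.86 in Delta-HER2 (adjusted p = 3.68e-05) and 1.79 in WT-HER2 cells (adjusted p = 0.00104), with a control mean of 3.05 under the bound, so that the size is uncertain. ICAM1, an adhesion molecule, rose by 0.65 in Delta-HER2 (adjusted p = 5.19e-05) and 0.40 in WT-HER2 cells (adjusted p = 0.0141), where the call was lost without array control 2, control 3, WT-HER2 1 or WT-HER2 2 (adjusted p 0.0582 to 0.0652). WARS1, the tryptophanyl-tRNA synthetase, rose by 1.17 in Delta-HER2 cells, and GBP2, a guanylate-binding protein, fell by 1.18 there.

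**Figure D4:**
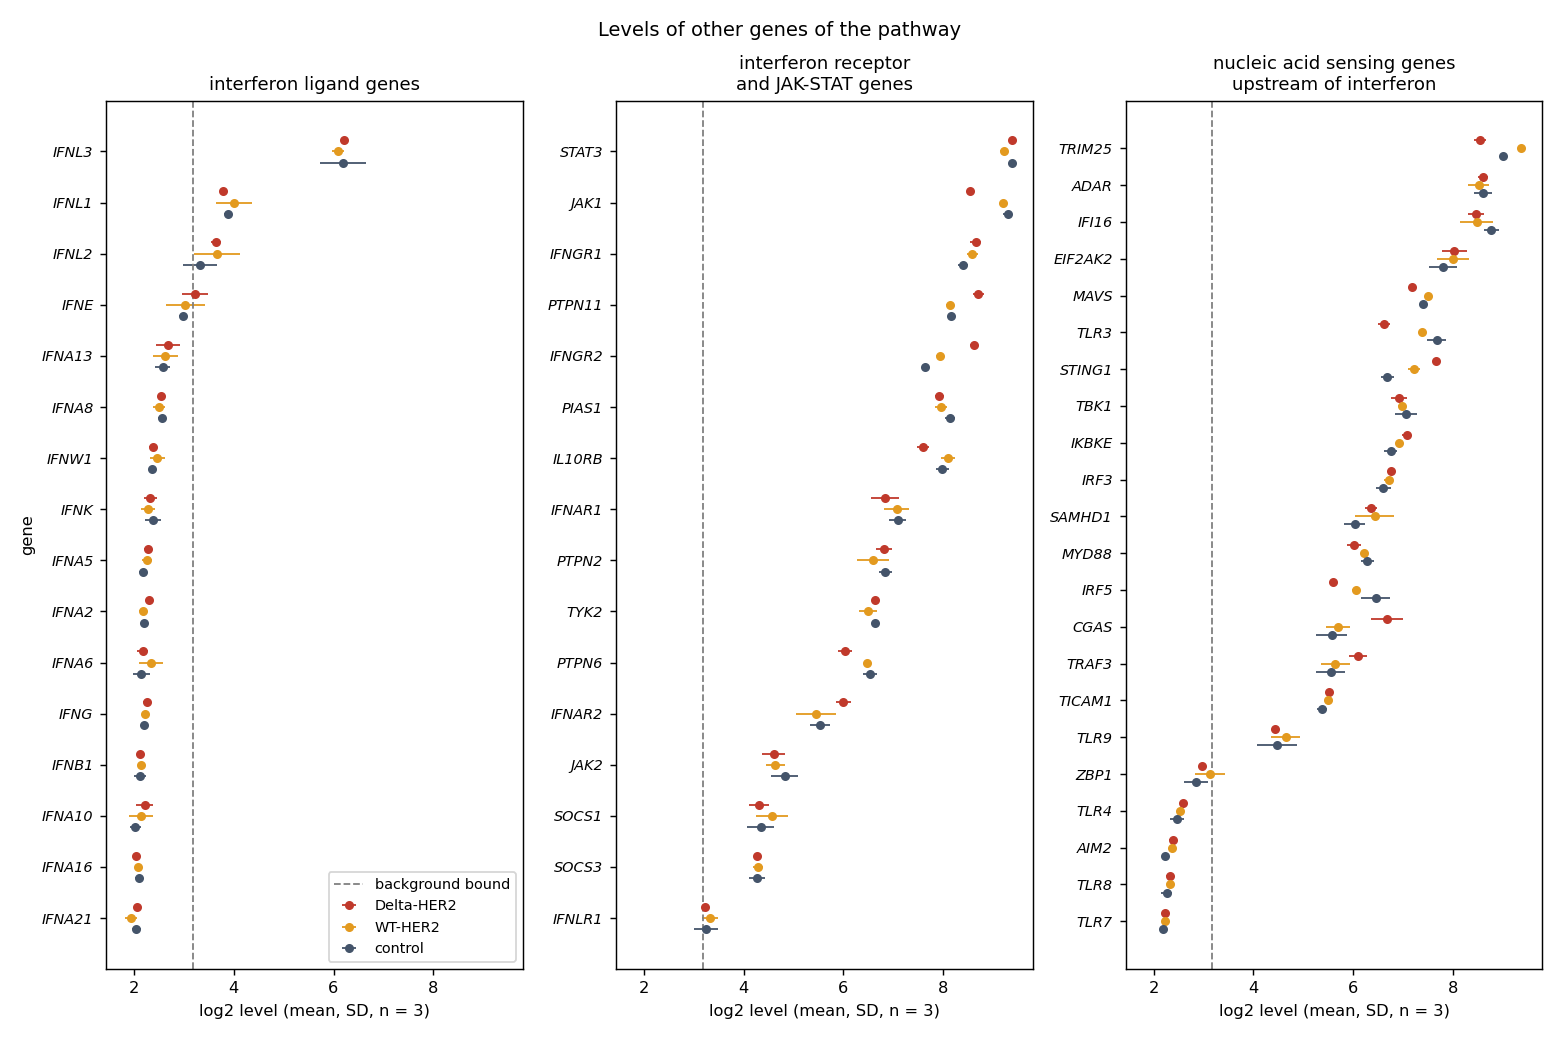
Mean log2 level with SD of interferon ligand, receptor and JAK-STAT, and nucleic acid sensing genes in Delta-HER2, WT-HER2 and control cells (n = 3 arrays each), with a dashed line at the background bound of 3.18. Ligand genes lie mostly under the line, and JAK1, TLR3, STING1 and CGAS show the Delta-HER2 values apart from control.

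Markers of other cells that could bring interferon or its response were read on the same arrays. PTPRC, CD3E and LYZ of blood cells, CLEC4C and IL3RA of plasmacytoid dendritic cells, PDGFRA, LUM and THY1 of fibroblasts, and CDH5, VWF, KDR and TEK of endothelium lay under the bound in all groups. Above it in at least 1 group were 4 of 7 blood and immune, 2 of 4 plasmacytoid dendritic cell, 5 of 8 fibroblast and 1 of 5 endothelial markers. The mean level over the 7 blood and immune markers ranged over 3.99 to 4.08 in Delta-HER2, 4.14 to 4.27 in WT-HER2 and 3.96 to 4.09 in control arrays. Over the 4 plasmacytoid dendritic cell markers it ranged over 3.69 to 3.81 in Delta-HER2, 3.63 to 3.78 in WT-HER2 and 3.78 to 3.80 in control arrays. Over the 8 fibroblast markers the ranges were 3.79 to 3.86 in Delta-HER2, 3.95 to 4.10 in WT-HER2 and 3.81 to 4.06 in control arrays. Over the 5 endothelial markers they were 2.81 to 2.92 in Delta-HER2, 2.68 to 2.94 in WT-HER2 and 2.72 to 2.82 in control arrays.

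Some of these markers passed against control. CD68, a lysosomal protein, rose by 0.58 in Delta-HER2 and by 0.76 in WT-HER2 cells, and the integrin gene ITGAM was at -0.32 in Delta-HER2 cells (adjusted p = 0.0266). Among fibroblast markers, DCN averaged 7.07 in Delta-HER2, 7.73 in WT-HER2 and 7.15 in control cells and rose by 0.58 in WT-HER2 cells, and the collagen gene COL1A1 was at -0.44 in Delta-HER2 cells (adjusted p = 0.0134). Among endothelial markers, PECAM1 rose by 0.90 in Delta-HER2 cells (adjusted p = 0.000131), with means of 3.90 in Delta-HER2, 2.83 in WT-HER2 and 3.00 in control cells, and KDR, under the bound, was at -0.36 in Delta-HER2 cells (adjusted p = 0.0248). The PECAM1 call held without any single array. In WT-HER2 cells the CD68 call was lost without array control 2 or control 3 (adjusted p 0.0513 to 0.0519), and the DCN call without control 2, control 3, WT-HER2 1 or WT-HER2 2 (adjusted p 0.0758 to 0.0849). In Delta-HER2 cells the COL1A1 call was lost without Delta-HER2 1 (adjusted p = 0.0579), the KDR call without control 3, Delta-HER2 1 or Delta-HER2 2 (adjusted p 0.0882 to 0.0933), and the ITGAM call without control 1, control 3 or any 1 Delta-HER2 array (adjusted p 0.0531 to 0.0842). The part of these markers in the antiviral gene values was not tested.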

How the data were processed

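RNA of 9 MCF10A samples (3 Delta-HER2, 3 WT-HER2, 3 control) was hybridised to Affymetrix whole-transcript arrays. The deposited log2 values were made by the authors with RMA (affy, R 2.14), per the submitters' processing notes, which corrects background, normalizes quantiles and summarises probes. No genome build is stated there. The values were used as deposited, without a filter.

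Of 32321 transcript clusters, 19158 had 1 symbol, 1388 several and 11775 were not listed. The cluster with the highest mean over 9 arrays stood for each of 18404 genes. The software was R 4.3.3 with limma 3.58.1 and statmod 1.5.0. A mean per group was fitted over all 9 arrays, with two-sided moderated tests (residual degrees of freedom 6, prior 3.25) and Benjamini-Hochberg adjustment over all 18404 genes, called at 0.05. The median SE of a difference was 0.10, and the number of arrays limits the precision. Intervals are 95%. The fit was tested on simulated data. The antiviral genes and the other lists were chosen with earlier results of these data known. All antiviral genes are named, and of each other list up to 4 per comparison by smallest p. CGAS, IFNB1, IFNL3, IFNAR1, IFNAR2 and the cell markers named stand outside that rule and were chosen after their values were seen. Alternatives were normalizations, filters, variance estimates, weights, a replicate block, pairs of groups alone, a threshold of 0.01 and arrays left out.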

Additional observations from a re-analysis of the deposited data

Results flagged for a closer look

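One transcript cluster outside the main measurement carried a signal. It is annotated to both USP41P and USP18, so that no single gene can be named for it and it was left out of the comparisons. Its level was 5.80, 5.67 and 5.87 in Delta-HER2 cells, 5.95, 5.86 and 5.10 in WT-HER2 cells, and 4.65, 5.13 and 4.99 in control cells. Delta-HER2 minus control was 0.86 (SE 0.22, limma adjusted p = 0.0323 over 32321 clusters), and all 3 Delta-HER2 arrays lay above the control arrays. WT-HER2 minus control was 0.71 (adjusted p = 0.339), and Delta-HER2 minus WT-HER2 was 0.14 (adjusted p = 0.762). The cluster with USP18 as its single symbol was at 0.34 in Delta-HER2 cells against control and did not pass (adjusted p = 0.153).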

How the results depend on the processing

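Directions of called genes did not reverse under any of the 21 alternatives. In several of these, such as the stricter threshold, the replicate block or another variance estimate, the difference itself is unchanged, so its direction could not reverse. Calls were kept under all 21 by DDX60, IFITM1, IRF9, OASL, RIGI, SAMD9 and TRIM22 in Delta-HER2 against control, by OASL and IFIT3 in WT-HER2 against control, and by IFI6, IFIT1, IFIT2, IFIT3, IRF1, IRF9, OAS1 and TRIM22 in Delta-HER2 against WT-HER2. At an adjusted p below 0.01, 4 genes rose and 3 fell in Delta-HER2 cells (9.9% and 7.5% of all genes). In WT-HER2 cells 2 rose with 0 lower (0.299% and 0.326% of all genes). Between the lines, 8 were lower in Delta-HER2 than in WT-HER2 cells (5.53% of all genes). In WT-HER2 against control cells 7 rose and 0 fell with all transcript clusters tested (0.309% and 0.387% of all clusters). With these 2 groups alone in the fit, 2 rose and 0 fell (0.331% and 0.397% of all genes). After median centring 0 fell (0.668% of all genes). With the replicate number as a block, 4 were higher and 0 lower in WT-HER2 cells (0.359% and 0.397% of all genes), and the cause was not tested. Replicate numbers did not pair arrays. Correlations of deviations ran from -0.51 to 0.30 between same-numbered arrays and from -0.47 to 0.64 between differently numbered arrays. Only 1 of 9 arrays matched its own number best. The highest correlation was between control 1 and WT-HER2 3, and each of them correlated with Delta-HER2 2 at 0.39. Over the antiviral genes, these arrays most often had the lowest value of their group, and the cause was not tested. Array weights gave 1 gene higher in Delta-HER2 than in WT-HER2 cells (15.8% of all genes). Without control replicate 1 and WT-HER2 replicate 3 together, 11 fell in Delta-HER2 cells (14.5% of all genes). Then 23 were lower in Delta-HER2 than in WT-HER2 cells (11.5% of all genes). With 1 array left out, 4 to 9 genes rose and 3 to 10 fell in Delta-HER2 cells (11.1% to 14.7% and 8.89% to 13% of all genes). In WT-HER2 cells 3 to 17 rose (0.348% to 0.734% of all genes), with 0 to 1 lower there (0.326% to 0.902%). Between the lines, 11 to 22 were lower in Delta-HER2 than in WT-HER2 cells (7.2% to 9.98% of all genes). Levels under the background bound limit what these arrays can show for MX1, MX2 and EPSTI1. The same holds in part for XAF1, under it in Delta-HER2 and control means, and SAMD9L, under it in the Delta-HER2 mean.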
